A study of Mus musculus with 24 samples.

Results

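The glial and vascular marker genes are 33 genes that mark the cell types of the brain other than neurons, out of 36528 genes counted in every library. They were chosen by name: 9 oligodendrocyte genes, 9 astrocyte genes, 7 microglia genes, 4 endothelial genes and 4 mural genes. All 33 were found among the deposited genes by their NCBI Gene number. The libraries come from sorted neurons, so the question is how much RNA of these genes each neuronal sort carries, and in which libraries.

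Neurons of 4 subtypes, labelled EXC, PV, SST and VIP, were sorted from the cortex of adult mice, and 6 bulk RNA-seq libraries were made for each, 24 in all. Tissue was digested with papain, and live cells (negative for the dye DAPI) carrying GFP or tdTomato were collected by fluorescence-activated cell sorting. Which reporter line and colour belongs to which subtype, the strain, the exact age and the number of animals behind a library are not given in the labels, so p-values measure the spread between these libraries only. The labels spell out none of the subtype names. EXC has 4 male and 2 female libraries, PV has 3 and 3, SST has 4 and 2, and VIP has 2 and 4. Replicate numbers follow the order of deposition. The labels also give a sequencing pool. All 6 PV libraries and 5 EXC libraries are in POOL6188, 5 SST and 2 VIP libraries (replicates 1 and 3) in POOL7098, 4 VIP libraries and EXC replicate 3 in POOL7099, and SST replicate 5 alone in POOL7100. PV shares no pool with SST or VIP, so for those comparisons subtype and pool cannot be told apart.

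Total reads per library ranged from 1548907 to 15978459, with PV the shallowest (at most 4653119). Mitochondrially encoded genes took 14.4% to 52.9% of the reads in PV, against 1.80% to 16.6% across the other subtypes. Each sort was high for its own defining gene: Pvalb stood at 177 to 231 CPM in PV and at 5.37 CPM or less elsewhere, Sst at 699 to 1417 CPM in SST and 132 CPM or less elsewhere, and Vip at 1628 to 1770 CPM in VIP and 5.27 CPM or less elsewhere. Slc17a7, the vesicular glutamate transporter of cortical excitatory neurons, stood at 162 to 818 CPM in EXC and at 60.2 CPM or less in the other sorts. EXC was not free of the GABA-synthesis genes, with Gad1 at 74.5 to 160 CPM and Gad2 at 184 to 596 CPM.

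Oligodendrocytes wrap axons in myelin and make very large amounts of mRNA for myelin proteins, some of which, Mbp and Mobp among them, is carried out of the cell body into the processes. Astrocytes clear glutamate, buffer ions and line blood vessels with endfeet rich in the water channel Aqp4. Microglia are the resident macrophages of the brain and make the 3 chains of complement C1q, while endothelial cells form the vessel wall and mural cells (pericytes and smooth muscle) cover it.

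Promoters are shown for Mobp and Ermn, myelin genes that differed between libraries in different ways, and for C1qb and C1qc, the complement genes set against C1qa. Each is the 250 bases before the start that RefSeq's promoter table uses, and the C1qc window runs into the span listed for that gene, which ends at 136892936. Sequences and coordinates are RefSeq's on GRCm38.p6, written 5′ to 3′ on the strand of the gene. In Mobp (chr9:120149492-120149741, plus strand) and Ermn (chr2:58052865-58053114, minus strand), capitals mark CTTTGT or its reverse complement ACAAAG, letters found in binding sites of SOX-family factors such as Sox10, which drives myelin genes. In C1qb (chr4:136886201-136886450, minus strand) and C1qc (chr4:136892915-136893164, minus strand), capitals mark GGAAGT or its reverse complement ACTTCC, letters found in sites of ETS-family factors such as PU.1, which is needed for microglia.
Mobp: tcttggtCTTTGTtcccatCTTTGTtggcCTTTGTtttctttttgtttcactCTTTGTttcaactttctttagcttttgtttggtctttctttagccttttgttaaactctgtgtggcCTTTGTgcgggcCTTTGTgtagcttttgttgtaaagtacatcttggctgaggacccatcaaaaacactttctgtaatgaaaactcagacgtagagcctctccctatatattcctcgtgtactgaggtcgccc
Ermn: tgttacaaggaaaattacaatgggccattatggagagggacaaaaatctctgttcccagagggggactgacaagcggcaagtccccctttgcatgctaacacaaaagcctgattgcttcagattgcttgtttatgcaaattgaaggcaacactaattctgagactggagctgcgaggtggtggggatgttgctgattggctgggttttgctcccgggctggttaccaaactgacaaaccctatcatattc
C1qb: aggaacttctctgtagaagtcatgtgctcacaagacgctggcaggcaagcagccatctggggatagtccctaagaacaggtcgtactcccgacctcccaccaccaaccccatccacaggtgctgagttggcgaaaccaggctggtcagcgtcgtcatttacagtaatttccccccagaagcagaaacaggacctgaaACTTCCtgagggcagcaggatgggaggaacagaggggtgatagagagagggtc
C1qc: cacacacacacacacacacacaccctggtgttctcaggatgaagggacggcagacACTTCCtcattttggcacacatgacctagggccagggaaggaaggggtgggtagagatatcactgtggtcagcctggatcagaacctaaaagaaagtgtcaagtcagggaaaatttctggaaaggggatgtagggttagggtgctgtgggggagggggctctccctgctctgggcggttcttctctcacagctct

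A promoter of this length was matched for 26 of the 33 members. The Mobp window held CTTTGT 6 times, all on the strand of the gene, which was also the highest number in any of the 32851 promoters searched on both strands. Of these promoters 16.5% held it at least 1 time, as did 4 of the 8 oligodendrocyte members with a promoter (Mobp, Mag, Cnp and Opalin). The Ermn window held no match, which says only that these letters are not in this window. GGAAGT was in 19.7% of all promoters and in 3 of 4 microglia members with one, with 1 match each in C1qb, C1qc and P2ry12 and none in Cx3cr1. The 2 sets of letters do not overlap each other, and a match is a description of sequence, not of a binding site.

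Levels are given as normalised CPM, the count scaled to a common library size by TMM, a scale on which libraries can be compared for 1 gene but genes cannot be compared with each other. RPKM, which also divides by gene length (the authors' size-factor-adjusted values), is used where genes are compared. Fold changes are log2 with a standard error, from edgeR's quasi-likelihood test over all 24 libraries with sex as a covariate, with p-values adjusted by Benjamini-Hochberg over all 14890 genes tested and called under 0.05. In a bulk library, fewer cells of a type and less RNA per cell cannot be told apart.

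By median, EXC libraries gave the largest share of reads to these genes. As a share of all reads, the 33 members took 0.104% to 0.724% of an EXC library (median 0.219%), 0.136% to 0.216% of a VIP library (median 0.178%), 0.0464% to 0.0940% of a PV library (median 0.0721%) and 0.0376% to 0.0643% of an SST library (median 0.0568%). Mitochondrially encoded genes took 14.4% to 52.9% of all reads in PV, against 1.80% to 16.6% elsewhere. The PV shares would therefore be raised most if those reads were left out. In VIP most member reads lay on Slc1a2, whose mRNA is also found in some neurons, and Slc4a4. In VIP replicate 6 these genes held 9071 and 746 of 10577 member reads, and in PV replicate 6 they held 497 and 146 of 1172. Shares without them were not computed, so the order of the subtypes holds only with both included. The highest mean level was in EXC for 27 of the 33 members, in PV for Aqp4, Gja1 and Acta2, and in VIP for Fgfr3, C1qa and C1qc. The EXC means lean on replicate 6, the highest EXC library for 30 of the 33. By median, Gfap, Slc1a3 and Rgs5 were highest in PV. The subtype with the highest mean was not counted over all genes. The lowest mean was in SST for 22 of the 33, including all 9 astrocyte genes. Most values were above 0: 50 of the 792 values (33 genes in 24 libraries) were at 0 reads, 22 of them in PV, where 3 reads amount to 0.653 to 3.21 CPM. Opalin was at 0 in 5 of 6 PV libraries, Mog in 4 and Cldn5 in 3.

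**Figure D1:**
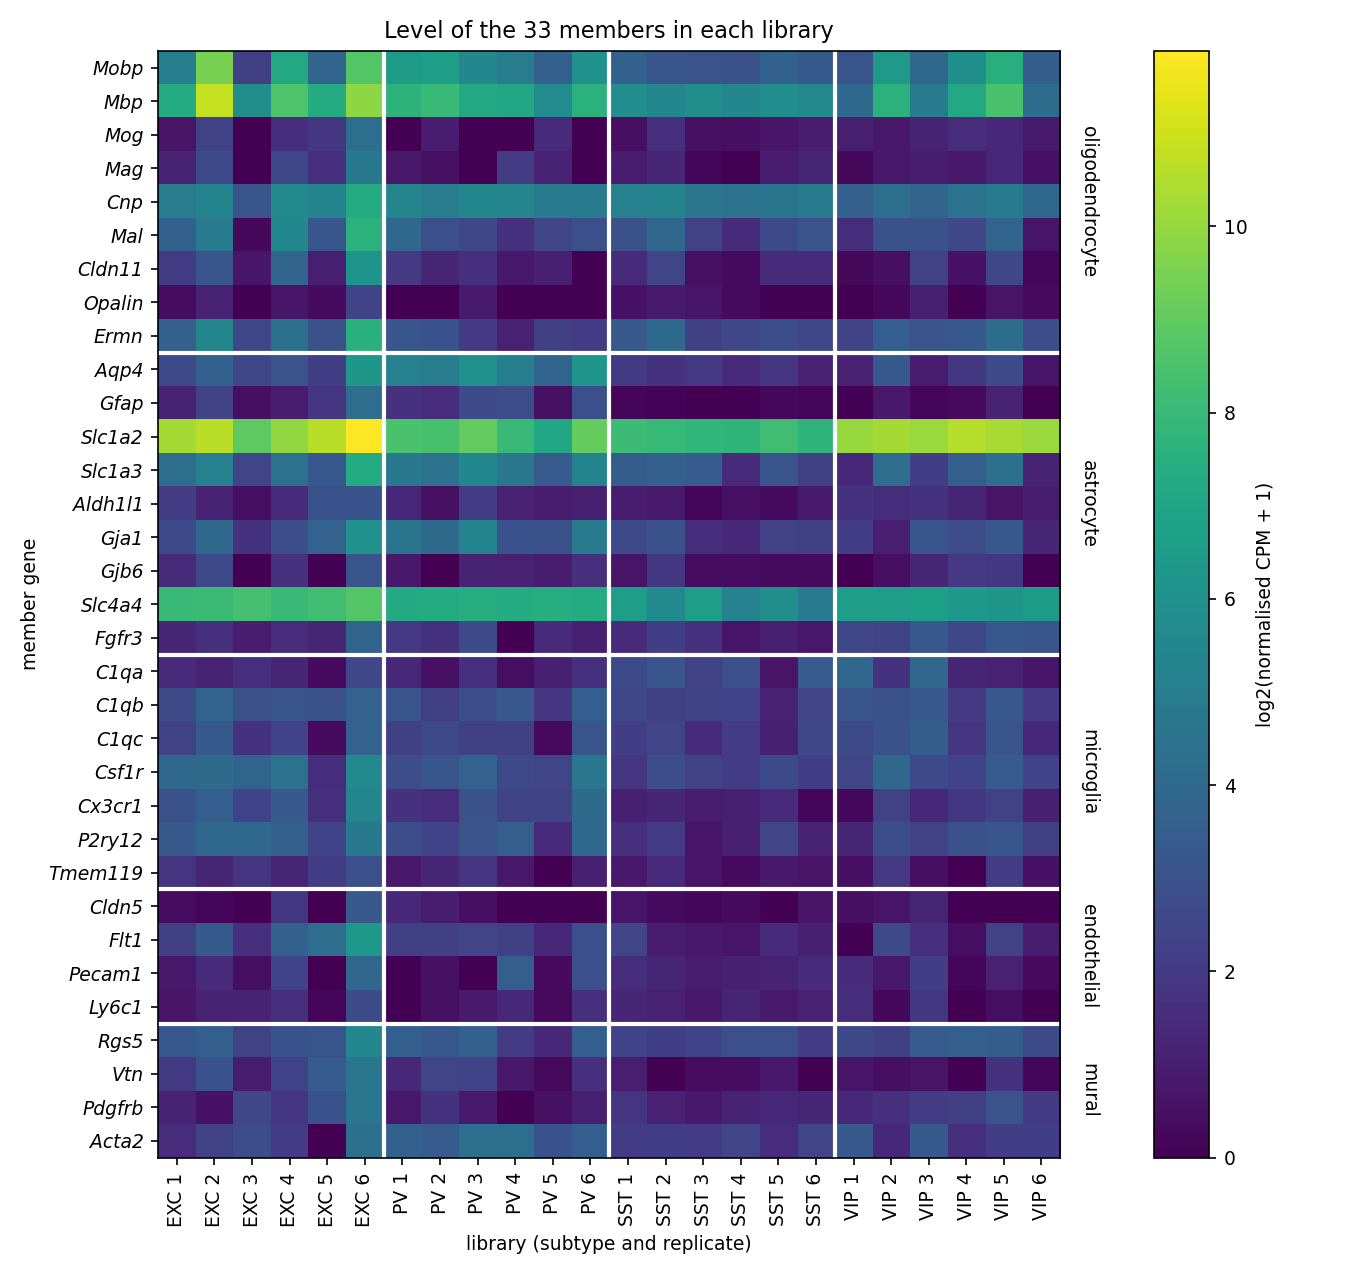
Level of each of the 33 members (rows, grouped by class) in each of the 24 libraries (columns, by subtype and replicate), as log2 of normalised CPM plus 1 on a colour scale from dark (low) to yellow (high). EXC replicate 6 is the highest EXC column for 30 of 33 members, and SST has the lowest mean for all 9 astrocyte genes.

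Summed over the 9 oligodendrocyte genes, the level was 984 ± 1084 CPM (SD, n = 6) in EXC, 271 ± 106 in PV, 223 ± 218 in VIP and 107 ± 17.4 in SST. The astrocyte sum was 2005 ± 1307 CPM in EXC, followed by VIP at 1327 ± 168, PV at 619 ± 201 and SST at 328 ± 61.9. Of this sum Slc1a2 and Slc4a4 made up on average 98.0% in VIP, 96.6% in EXC, 94.98% in SST and 84.93% in PV. The other 7 astrocyte genes gave a different order, with medians of 83.2 CPM in PV, 38.8 in EXC, 27.1 in VIP and 16.8 in SST. Their means were 98.8 CPM in PV and 90.3 in EXC, against 27.1 in VIP and 16.8 in SST. The microglia sum was 64.0 ± 46.2 CPM in EXC, 36.5 ± 21.8 in PV, 33.1 ± 12.8 in VIP and 20.6 ± 5.13 in SST. The SD in EXC was close to or above the mean for the oligodendrocyte class, so its libraries do not form a tight group. The endothelial sum was 28.4 ± 40.4 CPM in EXC and between 4.37 and 8.30 on average in the others. The mural sum was 34.6 ± 38.7 CPM in EXC, 23.9 ± 8.58 in PV, 16.6 ± 6.09 in VIP and 10.1 ± 1.70 in SST. Without EXC replicate 6 the EXC means were 779 CPM for the oligodendrocyte sum, 1499 for the astrocyte sum, 46.3 for the microglia sum, 12.2 ± 7.65 (SD, n = 5) for the endothelial sum and 18.9 ± 4.198 for the mural sum, the last below PV.

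**Figure D2:**
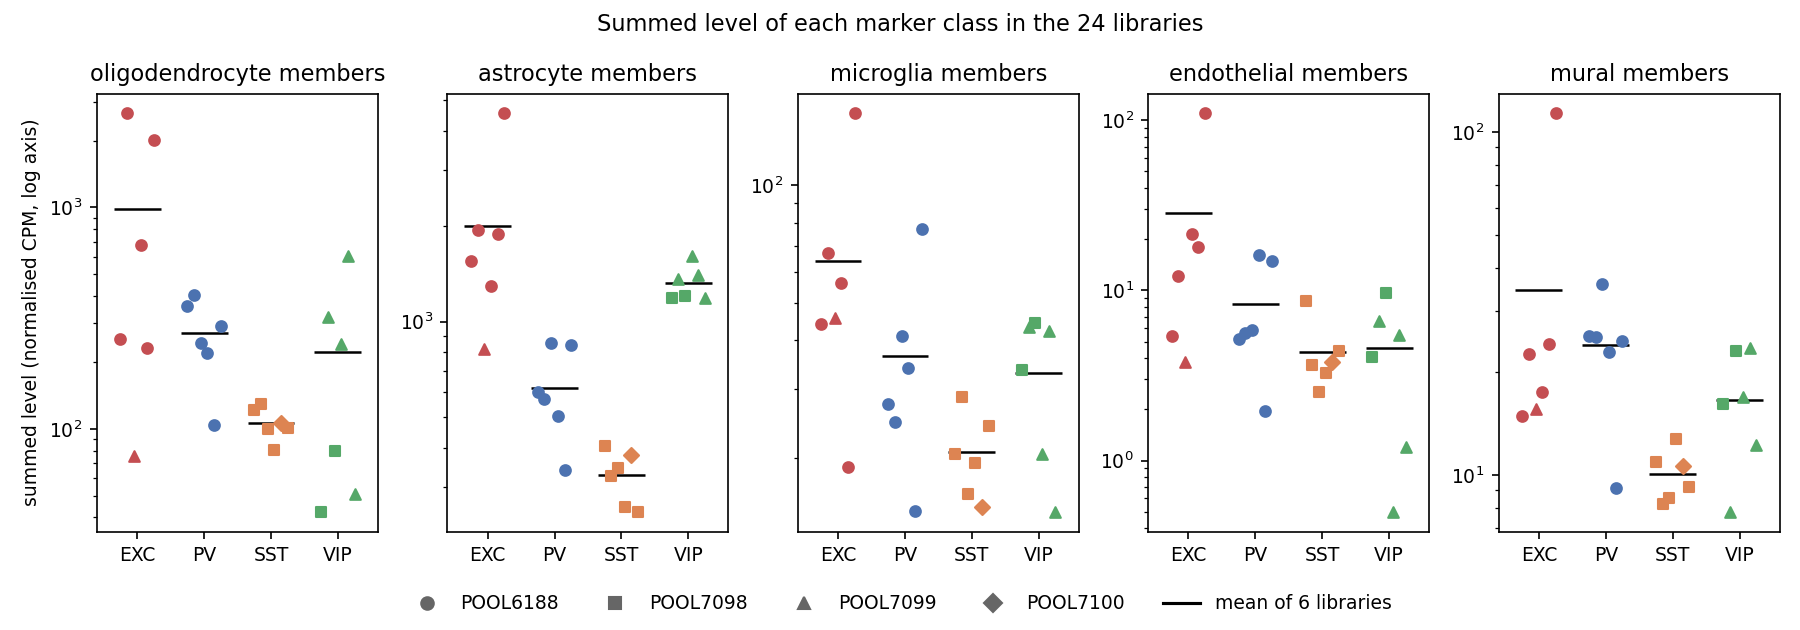
Summed level of each marker class (normalised CPM, log axis) in the 6 libraries of each subtype, with symbols by sequencing pool and bars at the mean of 6 libraries. EXC spreads widest, from 75.3 to 2658 CPM for the oligodendrocyte class, while SST stays between 80.5 and 130 CPM.

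When EXC was set against the average of the other 3 subtypes, 21 members were higher and none lower (edgeR's quasi-likelihood test, Benjamini-Hochberg adjusted p under 0.05), of 29 that passed the filter on low counts. Mag, Opalin, Cldn5 and Ly6c1 did not pass it, and a member can pass through EXC alone, so the count is a description. Over all 14890 genes tested, 24.5% were higher in EXC and 18.1% lower, and the median log2 fold change was 0.06 against 1.61 for the 29 members. Of the 6 EXC libraries 2 stood out: replicate 6 had the highest EXC value for 30 of 33 members and replicate 2 for the other 3, Mobp, Mbp and C1qb. Without replicate 6, 14 members were called higher, and without replicates 2 and 6 together, 6 were. With pool as a covariate, a fit in which EXC replicate 3 is the only link between PV and the SST and VIP pools, 1 member was higher and 1, Cnp, lower. That linking library was itself unlike the other EXC libraries. Its sum of 6 excitatory neuron genes was 1811 CPM, against 3582 to 5048 in the others. Its sum of 7 GABAergic neuron genes was 881 CPM, against 316 to 640. The part of this library in the results with pool as a covariate was not tested.

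Myelin genes were the most uneven members. Mobp, a structural protein of compact myelin, had a lowest, median and highest level of 3.79, 89.0 and 696 CPM in EXC, 11.3, 54.5 and 98.1 in PV, 6.73, 8.55 and 11.7 in SST, and 7.55, 37.3 and 177 in VIP. Mbp, myelin basic protein, stood at 58.0, 277 and 1831 CPM in EXC, at 51.4, 168 and 255 in PV, at 44.0, 51.6 and 58.1 in SST, and at 15.7, 86.9 and 356 in VIP. All 4 subtypes overlapped for both genes, and in both the highest EXC library was replicate 2. All 7 oligodendrocyte members tested were higher in EXC than the mean of the others. Ermn, an actin-binding protein of the myelin sheath, rose by 2.63 ± 0.47 (SE, adjusted p = 4.54e-05), Mbp by 2.55 ± 0.50 (adjusted p = 0.000164), Mal, a lipid-raft protein of myelin, by 2.74 ± 0.57 (adjusted p = 0.000307) and Mobp by 2.85 ± 0.61 (adjusted p = 0.000399). None of the 7 was called without EXC replicates 2 and 6, when the values were 0.66 for Ermn, 0.81 for Mbp, 1.28 for Mal and 0.50 for Mobp.

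Cnp, an enzyme of myelinating cells, stood at 7.59 to 160 CPM in EXC, 28.9 to 45.2 in PV, 22.3 to 38.4 in SST and 11.4 to 30.3 in VIP. Mog, Mag, Cldn11 and Opalin, all proteins of the myelin membrane, were low, with medians of at most 5.69 CPM in any subtype. Their highest values were all in EXC replicate 6, at 18.4 CPM for Mog, 26.7 for Mag, 71.1 for Cldn11 and 4.27 for Opalin. Per length, Mbp led the class in EXC (mean 51.5 RPKM), PV (14.3 RPKM) and VIP (11.2 RPKM), but in SST Cnp led at 5.62 RPKM, with Mbp at 4.36 and Mobp at 0.827 RPKM, below Mbp and 3 other members.

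Mobp and Mbp did not move in step with the other 7 myelin genes. In EXC replicate 2 they made up 95.1% of the oligodendrocyte sum, with 2527 CPM against 131 CPM for the other 7. In EXC replicate 6 they made up 67.1%, with 1347 CPM against 662 CPM. Set against the median of the other 4 EXC libraries, Mobp was 29.5 times higher in replicate 2 and 17.5 times higher in replicate 6, while Ermn was 4.71 and 20.5 times higher and Cldn11 3.79 and 33.1 times higher. Mbp was 11.5 and 5.89 times higher and Cnp 1.12 and 4.49 times higher. Mobp and Mbp did not keep a fixed proportion either: Mbp per Mobp ran from 1.69 in VIP replicate 6 to 15.3 in EXC replicate 3, so their sum is mostly Mbp. So the EXC libraries that stood out did so in different ways: replicate 2 in Mobp and Mbp, replicate 6 across the class.

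The share of Mobp and Mbp in the oligodendrocyte sum also split VIP. In VIP replicates 2, 4 and 5 Mobp and Mbp made up 88.1%, 84.2% and 88.6% of the oligodendrocyte sum, with 282, 204 and 534 CPM, while in replicates 1, 3 and 6 they made up 54.8%, 56.0% and 55.1%, with 23.2, 44.8 and 27.9 CPM. The other 7 genes went the same way by less, at 38.1, 38.2 and 68.9 CPM against 19.2, 35.2 and 22.8 CPM. Mitochondrially encoded genes took 14.6%, 14.2% and 16.6% of the reads in replicates 2, 4 and 5 and 1.80%, 5.83% and 4.81% in replicates 1, 3 and 6. Replicates 1 and 3 are in POOL7098 and replicates 2, 4, 5 and 6 in POOL7099, and the part of pool was not tested. In PV, replicate 5 was lowest in the share (60.0%, 62.7 CPM) and in mitochondrial reads (14.4%), against 77.2% to 87.9% and 30.2% to 52.9% in the other 5. In SST the share was 40.04% to 65.68%. The part of mitochondrial read share in these levels was not tested, and EXC replicates 3 and 4, with 9.86% and 9.84% mitochondrial reads, stood at 61.8 and 539 CPM.

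**Figure D3:**
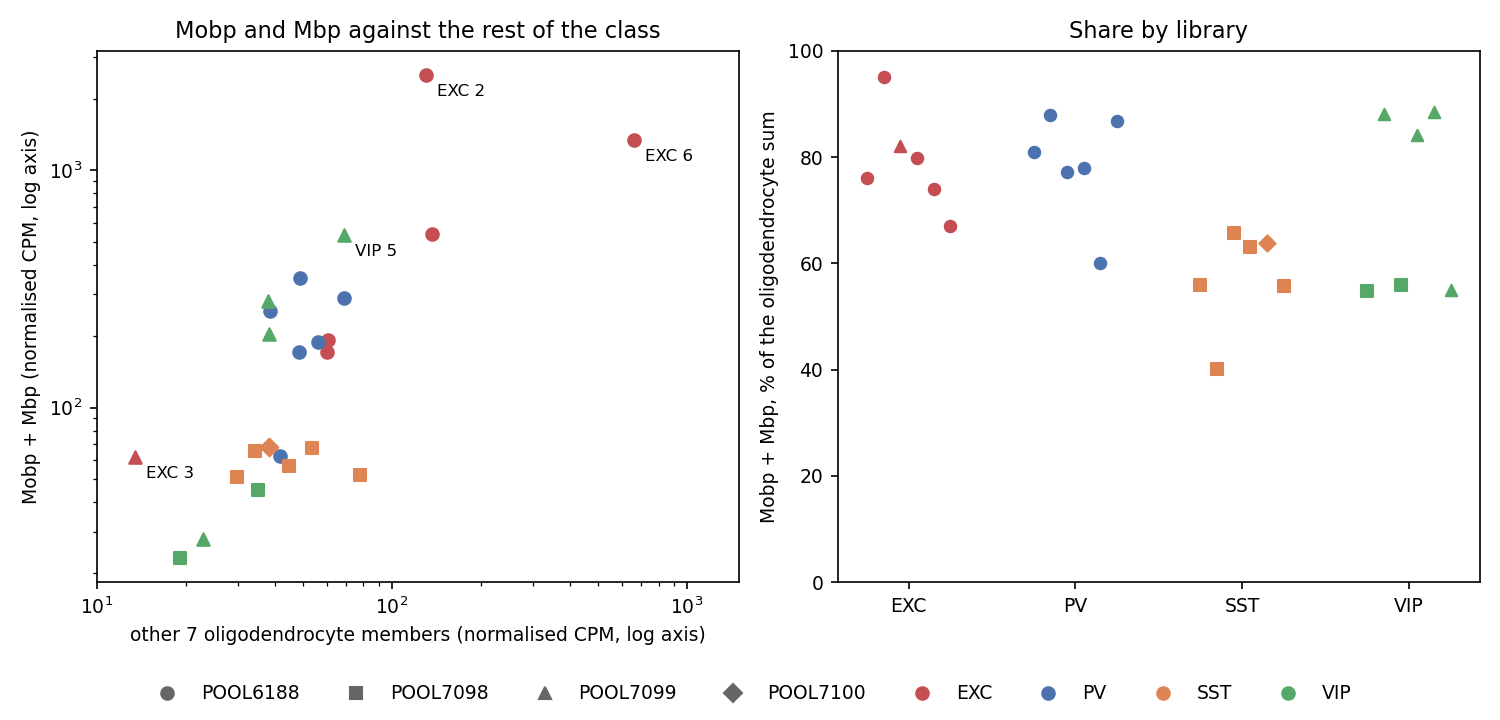
Left, summed level of Mobp and Mbp against the other 7 oligodendrocyte members in each library (normalised CPM, log axes), coloured by subtype; right, Mobp and Mbp as a percentage of the oligodendrocyte sum by subtype. EXC replicate 2 lies at 2527 against 131 CPM and EXC replicate 6 at 1347 against 662 CPM, and VIP falls into libraries at 84.2% to 88.6% and at 54.8% to 56.0%.

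Over the 24 libraries the genes whose log2 levels were most like Mobp's were Plekhb1 (Pearson r = 0.967), Bcas1 (0.961), Mbp (0.917), Ptgds (0.848) and Fam107a (0.836). These values describe libraries that share pools and sorts and carry no test. Plekhb1, a membrane-associated protein, stood at 7.17 to 266 CPM in EXC and 5.73 to 11.7 CPM in SST. Bcas1, which marks myelinating oligodendrocytes, stood at 0.211 to 292 CPM in EXC and 1.40 to 4.57 CPM in SST.

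Astrocyte genes did not form a single pattern either. Slc1a2, the main glutamate transporter of astrocytes, whose mRNA is also found in some neurons, made up 40.7% to 93.3% of the astrocyte sum of a library. Its lowest, median and highest levels were 484, 1401 and 3779 CPM in EXC, 1076, 1157 and 1503 in VIP, 138, 346 and 532 in PV and 212, 237 and 305 in SST. All VIP libraries were above all PV and SST libraries, and all EXC libraries above all SST libraries. It rose in EXC by 1.75 ± 0.25 (adjusted p = 1.71e-06) and by 1.19 without EXC replicates 2 and 6, still past the threshold.

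Slc4a4, a sodium bicarbonate cotransporter that astrocytes use to handle acid, varied little within PV and VIP. It stood at 261, 287 and 415 CPM in EXC, at 154, 160 and 168 in PV, at 77.7, 93.1 and 103 in VIP and at 28.8, 53.5 and 101 in SST. EXC was above each of the other subtypes in every library, and PV above SST and VIP. The rise in EXC was 1.61 ± 0.16 (adjusted p = 2.49e-09), and it was the only member still called higher in EXC with pool as a covariate (1.67, adjusted p = 4.33e-05). Counting members whose libraries do not overlap, 1 of 29 (Slc4a4) lay above PV in EXC, as did 12.3% of all genes, 6 above SST (9.07% of all genes) and 1 above VIP (9.42%). In PV 6 lay above SST (9.07% of all genes) and 2, Aqp4 and Slc4a4, above VIP (13.3%). Per length Slc1a2 and Slc4a4 were the top pair of the class in every subtype, at means of 73.1 and 23.7 RPKM in EXC and 11.1 and 4.63 RPKM in SST.

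Aqp4, Gja1, Gfap and Slc1a3 had their highest medians in PV. Aqp4, the endfoot water channel, stood at 13.3, 33.9 and 75.9 CPM in PV, 1.14, 2.52 and 3.11 in SST, 0.597, 1.96 and 8.98 in VIP and 3.56, 6.27 and 76.2 in EXC, where the highest value other than replicate 6 was 11.9. Every PV library was above every SST and VIP library. Gja1, the astrocyte gap junction protein connexin 43, stood at 6.75, 19.7 and 40.1 CPM in PV against 1.60, 3.79 and 6.73 in SST and 0.976, 4.75 and 8.98 in VIP, with PV and VIP overlapping. Gfap, the intermediate filament of astrocytes, was low throughout, with medians of 4.04 CPM in PV, 1.97 in EXC, 0.192 in VIP and 0.126 in SST. Slc1a3, the second glial glutamate transporter, had medians of 26.5 CPM in PV, 19.8 in EXC, 8.83 in SST and 7.31 in VIP.

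Against the mean of SST and VIP, 9 members were higher in PV and 1 lower, of 29 tested, where 19.3% of all genes were higher and 21.6% lower. Of these 5 were astrocyte genes: Aqp4 rose by 3.95 ± 0.56 (adjusted p = 2.83e-06), Slc4a4 by 1.13 ± 0.17 (8.85e-06), Gfap by 4.06 ± 0.77 (0.000137), Gja1 by 2.30 ± 0.54 (0.00139), and Slc1a3 was called as well. Slc1a2, the largest of the class, was not among them, at a log2 difference of -0.61 ± 0.29. None of the 7 oligodendrocyte genes tested was called in PV. With library totals in place of TMM, which lowers the median of all genes in this comparison by 0.49, 4 members were higher and 3 lower. Of all 14890 genes, 1108 were then higher and 6375 lower. With pool as a covariate no member was higher and 7 were lower, 6 of them oligodendrocyte genes, and without PV replicate 3 alone 5 were higher. Shares over all genes in these fits are not given here, so the counts are descriptions. PV also had the highest mitochondrial read share, 14.4% to 52.9%. With mitochondrially encoded genes left out of the fit the counts were again 9 higher and 1 lower. That setting moved the median of all genes in this comparison by only -0.002, so it cannot show the part of mitochondrial read share, which was not tested.

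The 6 members lower in SST than the mean of PV and VIP (7.16% of all genes were lower and 11.2% higher) were 4 astrocyte genes, Mobp and the microglial receptor P2ry12, and none was higher. Slc4a4 fell by 1.11 ± 0.20 (adjusted p = 0.000121), Slc1a2 by 1.41 ± 0.31 (0.0012), Aqp4 by 2.45 ± 0.66 (0.00879) and Gfap by 3.37 ± 0.92 (0.00964). Mobp fell by 2.66 ± 0.81 (0.0212) and P2ry12 by 1.59 ± 0.48 (0.0191). Mobp was not called without SST replicate 4 or VIP replicate 5, nor P2ry12 without SST replicate 4 or 6. With pool as a covariate 3 members were higher in SST and 1 lower, and Mobp (2.96), Aqp4 (0.49) and Gfap (0.68) changed sign, none past the threshold. These comparisons share the PV and VIP libraries with those above and are not independent of them.

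VIP was above the mean of PV and SST for 3 members, with 25.8% of all genes higher and 20.5% lower, and no member was lower. Slc1a2 rose by 2.03 ± 0.27 (adjusted p = 1.34e-06). Fgfr3, a fibroblast growth factor receptor of astrocytes, rose by 1.93 ± 0.54 (adjusted p = 0.00539), at 4.49 to 8.63 CPM in VIP, above all SST libraries (0.600 to 3.63) but not all PV libraries (up to 5.85). Pdgfrb, the growth factor receptor of pericytes, rose by 1.94 ± 0.56 (adjusted p = 0.00672), at 1.55 to 7.15 CPM in VIP. When pool was a covariate 7 members were higher, 4 oligodendrocyte and 3 astrocyte genes, and with no filter on low counts 5 were higher and 2 lower. Aldh1l1 and Gjb6, an astrocyte enzyme and a gap junction protein, were low in all subtypes, with medians of at most 2.41 and 1.97 CPM.

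The genes most like Aqp4 over the 24 libraries were Mlc1 (r = 0.937), Slc2a1 (0.919), Ccdc190 (0.916), Gpr37l1 (0.909) and Pbxip1 (0.901). Mlc1, a membrane protein of astrocyte endfeet, stood at 7.84 to 31.8 CPM in PV and at 3.30 CPM or less in SST and VIP. Slc2a1, the glucose transporter of brain endothelium and some glia, stood at 32.7 to 94.1 CPM in PV and 18.8 to 28.8 CPM in SST.

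Microglia genes were low, and most were highest in EXC. Csf1r, the receptor for the survival signal of microglia, stood at 1.98, 15.3 and 48.4 CPM in EXC, 4.57, 6.95 and 24.6 in PV, 4.18, 4.98 and 14.6 in VIP and 2.71, 3.71 and 6.11 in SST. P2ry12, a purine receptor of resting microglia, stood at 4.22, 12.99 and 27.2 CPM in EXC, 1.74, 6.53 and 15.0 in PV, 1.36, 5.05 and 8.07 in VIP and 0.592, 1.66 and 4.51 in SST. Cx3cr1, the fractalkine receptor, stood at 2.11, 7.82 and 41.2 CPM in EXC, above all SST libraries (up to 1.72), and Tmem119 had a median of 2.51 CPM in EXC and less elsewhere.

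In EXC 4 of the 7 microglia genes were higher. Cx3cr1 rose by 2.37 ± 0.49 (adjusted p = 0.000271), P2ry12 by 1.62 ± 0.37 (0.000875), Csf1r by 1.56 ± 0.38 (0.00162) and Tmem119 by 1.44 ± 0.54 (0.0332). Without EXC replicates 2 and 6, only P2ry12 was still called (1.11, adjusted p = 0.0484). In PV Cx3cr1 rose by 1.86 ± 0.59 (0.0143) and P2ry12 by 1.12 ± 0.45 (0.0482), and C1qa fell by 2.25 ± 0.79 (0.0247). The call of P2ry12 in PV was lost without PV replicate 1, 3, 4 or 6 (0.80, adjusted p = 0.175 without replicate 6) and without any of several libraries of the other subtypes. Cx3cr1 in PV was not called without PV replicate 6 (1.41, adjusted p = 0.0638) and changed sign with pool as a covariate (-0.77).

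The 3 chains of C1q, whose genes lie together on chromosome 4, did not follow each other from pool to pool. C1qa stood at 4.00 to 14.5 CPM in the 7 POOL7098 libraries and at 0.264 to 4.78 CPM in the 17 others, where EXC replicate 6 was the highest and the only one above 2.34. Of the reads on the 3 genes, C1qa took 38.7% to 51.4% in POOL7098 and 2.94% to 27.8% outside it, with no overlap. C1qb and C1qc together showed no such split over all libraries, at 6.07 to 18.6 CPM in POOL7098 and 2.19 to 24.6 CPM outside. Inside SST they were also higher in POOL7098, at 6.07 to 9.38 CPM against 2.19 in replicate 5. Inside VIP they stood at 13.2 and 18.6 CPM in POOL7098 and at 4.42 to 16.1 CPM in POOL7099.

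The split ran inside both subtypes that POOL7098 holds. In VIP, C1qa stood at 13.9 and 14.5 CPM in the POOL7098 libraries (replicates 1 and 3) and at 2.34, 1.38, 1.10 and 0.597 CPM in replicates 2, 4, 5 and 6. In SST the 5 POOL7098 libraries stood at 4.00 to 9.49 CPM and replicate 5, in POOL7100, at 0.530 CPM. So the higher C1qa means of SST (5.59 ± 3.13 CPM) and VIP (5.64 ± 6.66) against EXC (1.92 ± 1.53) and PV (1.27 ± 0.770) go with the pool, and the fall of C1qa in PV cannot be told apart from it. That call was lost without PV replicate 2, 4 or 5 or VIP replicate 3. What differs between the pools is not given in the labels.

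**Figure D4:**
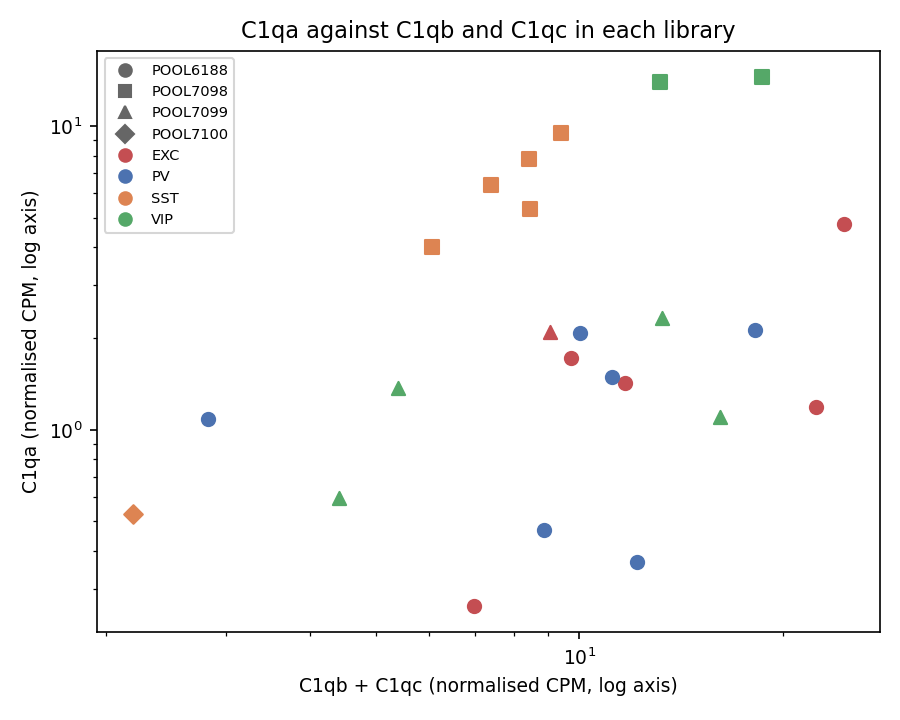
C1qa against the sum of C1qb and C1qc in each library (normalised CPM, log axes), with symbols by sequencing pool. The 7 POOL7098 libraries lie at 4.00 to 14.5 CPM of C1qa, above the other libraries with the same C1qb and C1qc.

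Other genes shared the C1qa pattern. The most alike over the 24 libraries were Capg (r = 0.889), Crabp2 (0.887), Fcgr4 (0.871), Col3a1 (0.864) and Bst2 (0.859). Capg, an actin-capping protein of macrophages, stood at 2.52 to 11.6 CPM in POOL7098 and 0 to 4.15 CPM outside it. Col3a1, a fibrillar collagen of fibroblasts, stood at 5.03 to 24.2 CPM in POOL7098 and 0 to 3.12 CPM outside it, and Bst2, an interferon-induced antiviral protein, at 2.52 to 11.2 and 0 to 0.632 CPM. Of all 14890 genes tested, 43 (0.289%) had every POOL7098 library above every other, and no member was among them.

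Endothelial genes were low, and apart from Flt1 they were low in EXC too outside replicate 6. Without that library the EXC means were 9.01 CPM for Flt1, 0.670 for Cldn5, 1.43 for Pecam1 and 1.04 for Ly6c1. Flt1, a receptor for vascular endothelial growth factor, stood at 2.11, 10.6 and 80.7 CPM in EXC, 1.52, 3.73 and 6.42 in PV, 0.600, 0.985 and 4.68 in SST and 0, 1.54 and 5.07 in VIP. It rose in EXC by 2.86 ± 0.56 (adjusted p = 0.000144) and by 1.74 without replicates 2 and 6 (adjusted p = 0.0235). Cldn5, a tight junction protein of brain endothelium, had medians of at most 0.266 CPM, the highest in SST, with 0 reads in 2 EXC, 3 PV and 3 VIP libraries. Pecam1 and Ly6c1, both endothelial surface proteins, had medians of at most 1.26 CPM (in SST) and 1.23 CPM (in EXC). Pecam1 did not pass the test in any comparison.

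Among the mural genes, Vtn, a secreted protein of pericytes, stood at 0.843, 5.62 and 24.01 CPM in EXC, 0.218, 1.81 and 4.67 in PV, 0, 0.315 and 0.986 in SST and 0, 0.461 and 2.38 in VIP. It rose in EXC by 3.15 ± 0.57 (adjusted p = 5.78e-05), by 2.24 without EXC replicates 2 and 6, still past the threshold, and in PV by 2.26 ± 0.77 (adjusted p = 0.0208). The call in PV was lost without PV replicate 2 (2.09, adjusted p = 0.0724) or PV replicate 3 (1.60, adjusted p = 0.144), and the sign changed with pool as a covariate (-1.65). Acta2, the actin of smooth muscle, was highest in PV at 6.97, 11.3 and 19.2 CPM, above every SST library (1.86 to 4.67), and rose there by 1.64 ± 0.52 (adjusted p = 0.0143), a call lost without PV replicate 3 (1.42, adjusted p = 0.0553). Rgs5, a G-protein regulator of pericytes, had medians of 8.07 CPM in EXC, 9.55 in PV, 7.53 in VIP and 4.28 in SST. Rgs5 (1.07 ± 0.39, adjusted p = 0.0287) and Pdgfrb (1.62 ± 0.53, adjusted p = 0.0149) were higher in EXC, but neither without EXC replicate 6. The genes most like Vtn over the 24 libraries were Ppp1r16b (r = 0.866), Flt1 (0.845), Prom1 (0.838), Atp2b2 (0.815) and Abhd17c (0.815).

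**Figure D5:**
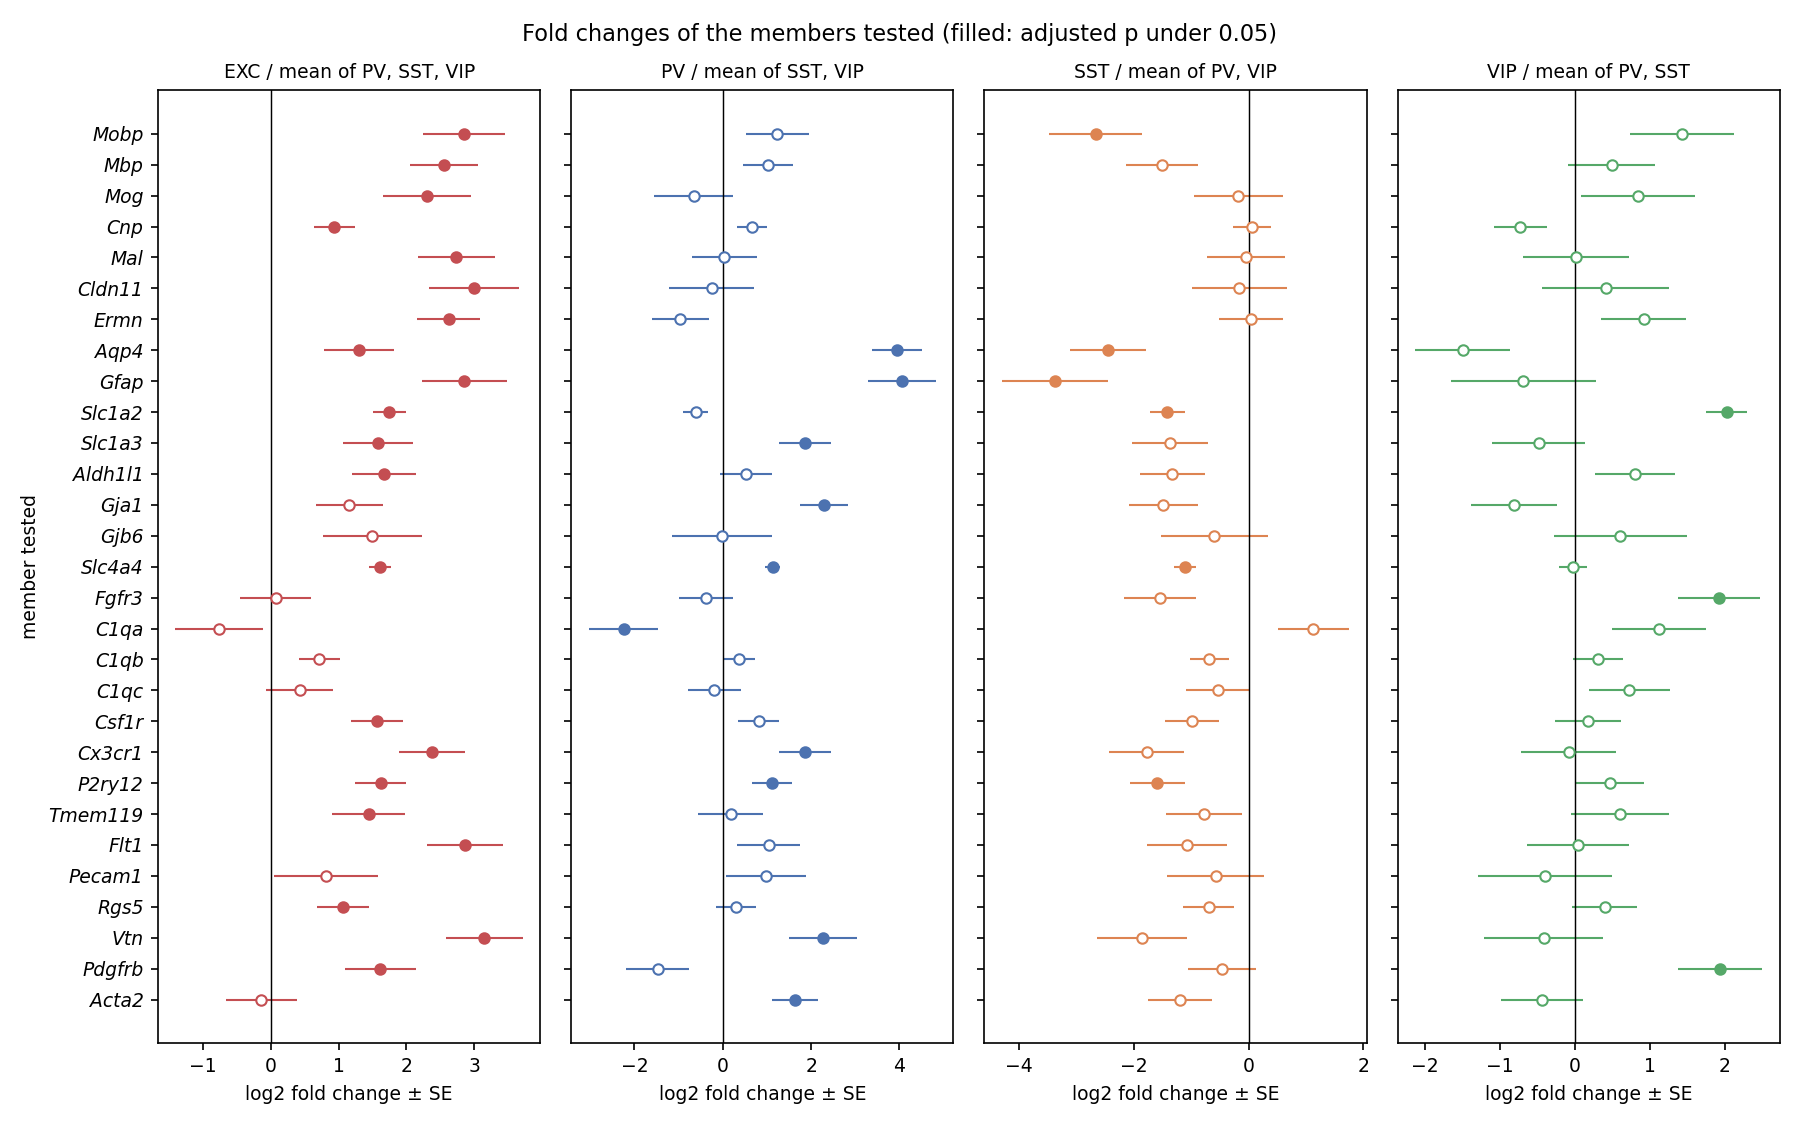
Log2 fold change with its standard error for each of the 29 members tested, in EXC against the mean of PV, SST and VIP and in PV, SST and VIP against the mean of the other 2, from edgeR (filled points, adjusted p under 0.05). In EXC 21 points are filled to the right and none to the left, in SST 6 to the left and none to the right.

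Within single pools the comparisons were smaller. In POOL6188, with 5 EXC and 6 PV libraries, 20 members were tested and 8 were higher in EXC, none lower, where 23.9% of 12447 genes were higher and 21.8% lower. They were Mobp, Mbp, Mal and Ermn, Slc1a2 (2.32 ± 0.36, adjusted p = 6.07e-05) and Slc4a4 (0.88 ± 0.13, adjusted p = 2.99e-05), Flt1 (2.28 ± 0.63, adjusted p = 0.00684) and Vtn (1.96 ± 0.67, adjusted p = 0.0237). Ermn rose by 3.46 ± 0.75 (adjusted p = 0.0012) and Mal by 2.90 ± 0.68 (adjusted p = 0.0022). Without EXC replicates 2 and 6, 4 members were called higher, Mal, Ermn, Slc1a2 and Slc4a4, and 2 lower. With library totals in place of TMM, which moves the median of all genes by 0.43, 14 were higher. Of all 12447 genes, 4515 were then higher and 1303 lower.

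In POOL7098, with 5 SST and 2 VIP libraries, 28 members were tested, and 2 were higher in SST and 8 lower, where 20.6% of 16449 genes were higher and 21.2% lower. Mbp (1.23 ± 0.27, adjusted p = 0.00246) and Cnp (1.29 ± 0.26, adjusted p = 0.00147) were higher in SST. Lower in SST were Slc1a2 (-2.12 ± 0.18, adjusted p = 6.34e-07), Fgfr3 (-2.29 ± 0.55, 0.00457), Aldh1l1, Slc4a4, Acta2 (-1.15 ± 0.29, 0.0059) and all 3 C1q genes, of which C1qa was at -0.99 ± 0.30 (0.0159). With 2 VIP libraries, leaving out VIP replicate 1 or 3 left 3 members lower, the lone VIP library then being assumed to vary like the SST libraries. Without SST replicate 4 there were 4, and without SST replicate 6 there were 5.

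Male and female libraries did not differ in any member at an adjusted p under 0.05 in edgeR. No member had an unadjusted p under 0.05 either, the smallest being 0.0506 for Pdgfrb (-1.07 ± 0.52, female minus male), and 0.0134% of all genes were higher in female and 0.0269% in male libraries. DESeq2's Wald test called none.

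Other genes of the same cell types were counted from lists of 120 genes. In EXC, where 24.5% of all genes were higher, 10 of 12 further microglia genes tested were higher and none lower, led by Laptm5 (2.89 ± 0.27, adjusted p = 1.24e-09), Cd53 (2.72 ± 0.43) and Fcrls (2.65 ± 0.51), genes of lysosomes, leukocyte membranes and microglia. Of 7 further mural genes 6 were higher, led by Myh11, the myosin of smooth muscle (3.07 ± 0.64), Abcc9 (2.27 ± 0.55) and Anpep (2.08 ± 0.69). Of 8 further endothelial genes 5 were higher, led by the transporters Slco1a4 (2.75 ± 0.60) and Slco1c1 (2.67 ± 0.74), and of 7 further oligodendrocyte genes 5 were higher and 1, Tspan2 (-1.54 ± 0.35), was lower. Of 12 further astrocyte genes 4 were higher, led by S100b (2.05 ± 0.60), and Clu was lower (-1.09 ± 0.30). EXC replicate 6 was far above the rest in the further oligodendrocyte sum, at 1702 CPM against 26.4 to 452 CPM in the other EXC libraries, and in the further endothelial sum, at 345 against 30.8 to 68.5 CPM. Without it, 7 of 12 further microglia, 4 of 6 mural, 2 of 8 endothelial and 2 of 7 oligodendrocyte genes were higher, and none of 11 astrocyte genes. With pool as a covariate 7 microglia, 3 mural and 2 endothelial genes were higher and no oligodendrocyte or astrocyte gene, while 2 oligodendrocyte and 4 astrocyte genes were lower.

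The lists beyond these classes differed by subtype. In EXC 3 of 6 fibroblast and leptomeningeal genes were higher, among them Dcn, a proteoglycan of fibroblasts. Dcn stood at 22.8 to 109 CPM in EXC and at 17.4 CPM or less elsewhere. Without EXC replicate 6, 3 of the 6 were higher and 2 lower, and with pool as a covariate 3 were higher and none lower. Col3a1, a collagen of this list, averaged 1.07 CPM over the EXC libraries. Its means were 9.85 CPM for SST, 8.17 for VIP and 0.566 for PV. It went with the pool, at a mean of 14.8 CPM in POOL7098 and 0.859 outside it. The macrophage gene Mrc1 was higher in EXC (3.05 ± 0.43, adjusted p = 1.48e-06), at 6.45 to 25.1 CPM. Over all genes, 19.3% were higher in PV and 21.6% lower. In PV 3 of 5 ependymal and choroid plexus genes were higher, Foxj1, Ccdc153 and Tmem212, all genes of ciliated cells, and Kl was lower (-1.44 ± 0.43). Foxj1, the master regulator of motile cilia, stood at 8.05 to 22.2 CPM in PV and at 2.04 CPM or less elsewhere. Ccdc153 stood at 7.62 to 25.7 CPM in PV and at 0.843 CPM or less elsewhere, and Tmem212 at 3.70 to 26.7 CPM and at 0.133 CPM or less. In PV 5 of 12 further astrocyte genes were higher as well, led by Mlc1 (3.64 ± 0.62), Sox9 (3.32 ± 0.45) and S100b (3.14 ± 0.71), and none of 12 further microglia genes. No ependymal gene was called in PV with pool as a covariate, and of the 12 further astrocyte genes 4 were lower and none higher.

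Over all genes, 7.16% were lower in SST and 11.2% higher, and in VIP 25.8% were higher and 20.5% lower. In SST 5 of 12 further astrocyte genes were lower, led by Cbs (-3.54 ± 0.64), S100b (-2.99 ± 0.85) and Mlc1 (-2.10 ± 0.72). So were 3 of 12 further microglia genes, led by P2ry13 (-1.56 ± 0.54) and Laptm5 (-1.06 ± 0.33). No gene of these 2 lists was lower in SST with pool as a covariate, and 1 further astrocyte gene was higher. In VIP 1 of 3 oligodendrocyte precursor genes tested, Pdgfra, was higher and 2 were lower, Bmp4 and Tnr. Pdgfra rose by 4.27 ± 0.52 (adjusted p = 3.03e-07). Pdgfra, the receptor that marks oligodendrocyte precursors, stood at 12.7 to 19.5 CPM in every VIP library and at 2.01 CPM or less in all others. Most other genes of the precursor list were low in VIP. Cspg4 stood at 1.10 CPM or less, Gpr17 at 0.664 CPM or less and Neu4 at 0.266 CPM or less. Bmp4 and Enpp6 had at most 5 and 9 reads in any VIP library. C1ql1 stood at 0 to 3.63 CPM in VIP and at 1.27 CPM or less elsewhere. Tnr was not low, with 608 to 982 reads in each VIP library, though it was called lower there. The blood list gave 1 call in VIP, Alas2 (1.59 ± 0.55), and none in EXC, PV or SST.

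The remaining counts were small. The shares of all genes higher and lower were 24.5% and 18.1% in EXC, 19.3% and 21.6% in PV, 11.2% and 7.16% in SST, and 25.8% and 20.5% in VIP. Of the 3 precursor genes tested, 1 was higher and 1 lower in EXC, 2 higher and 1 lower in PV, and 1 higher and 1 lower in SST. Of the 7 further oligodendrocyte genes none was called in PV or SST. Of the 8 further endothelial genes 1 was higher and 1 lower in PV and 1, Slco1a4 (-2.72 ± 0.81), was lower in SST, and of the 7 further mural genes 2 were higher in PV and 1 lower in SST. Of the 6 fibroblast genes 1 was higher and 2 lower in PV and 2 higher and 1 lower in SST. Of the 5 ependymal genes 1 was higher and 1 lower in EXC, 1 higher and 3 lower in SST, and 1 higher and 4 lower in VIP. In VIP 2 of 12 further astrocyte genes were higher and 1 lower, 1 of 12 further microglia genes was higher and 1 of 8 further endothelial genes lower, with no call among the further oligodendrocyte, mural and fibroblast genes. Mrc1 was lower in SST (-1.69 ± 0.57) and higher in VIP (2.32 ± 0.53). No gene of these lists was called between the sexes.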

How the data were processed

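RNA of 24 sorted neuron libraries was sequenced, 6 per subtype. Per the file headers, the authors deposited for each gene a count of reads aligning uniquely to its gene model and a size-factor-adjusted RPKM. Reads were aligned with GSNAP to GRCm38, per the submitters' processing notes. The sources used here do not name the counter, annotation or strand setting, so reads of overlapping genes cannot be told apart. Over 5359 genes with at least 20 reads in every library, the deposited count and RPKM columns gave the same ratio within each library to rounding.

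Symbols were assigned to 31126 of 36528 gene numbers, 31049 from RefSeq and 77 from GENCODE. All 33 members and all genes of the further lists were matched. Members and lists were chosen with earlier results of these data known.

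Deposited counts were tested with edgeR 4.0.16 in R 4.3.3 (limma 3.58.1): genes filtered by filterByExpr, TMM scaling, a quasi-likelihood F test on subtype plus sex over 24 libraries, and Benjamini-Hochberg adjustment over all genes tested, called under 0.05. The standard error is the log2 fold change divided by the root of F. The step was tested on simulated data. Levels are TMM-normalised CPM. Likeness is Pearson's r of log2 CPM with a prior count of 2. A floor of 3 counts was 0.163 to 3.21 CPM and covers counting error only. No libraries of a subtype were duplicates: the lowest chi-square per degree of freedom was 5.58. Alternatives were other scalings, filters, covariates, DESeq2 1.42.0 and left-out libraries. Counts of members under an alternative are descriptions where no count over all genes in that fit stands beside them. Fold changes are given for up to 4 called members of a class, by adjusted p, and up to 3 called genes of a further list, by size.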

Additional observations from a re-analysis of the deposited data

Results flagged for a closer look

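Among 131 groups of 6 libraries (the class sums, and members with a mean of at least 1 CPM in a subtype), 32 had a highest or lowest library farther from the others than Dixon's 95% critical value allows. For independent groups of normally distributed values chance flags about 1 in 20. These groups share libraries, the sums contain their members, and linear CPM need not be normal, so that rate is no yardstick here. EXC replicate 6 was the high library in 25 of them.

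In EXC replicate 6 the summed levels were 4536 CPM for astrocyte, 152.6 for microglia, 109.6 for endothelial and 113.1 for mural members. Its myelin genes stood apart at 18.35 CPM for Mog, 26.65 for Mag, 159.5 for Cnp, 196.8 for Mal, 71.14 for Cldn11, 4.273 for Opalin and 184.9 for Ermn. Mobp and Mbp did not, since EXC replicate 2 was higher. Its astrocyte genes stood apart at 76.17 CPM for Aqp4, 18.1 for Gfap, 3779 for Slc1a2, 155.9 for Slc1a3, 63.6 for Gja1 and 13.2 for Fgfr3. Of the microglia genes only Cx3cr1 did, at 41.22 CPM. The vascular genes were at 8.924 CPM for Cldn5, 80.69 for Flt1, 14.33 for Pecam1, 5.656 for Ly6c1, 44.62 for Rgs5, 24.51 for Pdgfrb and 19.98 for Acta2. Its mitochondrial read share, 6.23%, lay within the range of the other EXC libraries.

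The other flags were scattered. SST replicate 1 was high in the endothelial sum (8.624 CPM) and in Flt1 (4.681 CPM), and SST replicate 2 in Cldn11 (4.518 CPM). SST replicate 5, the only POOL7100 library, was low in C1qb (1.127 CPM). PV replicate 1 was high in Mal (14.89 CPM), PV replicate 3 in Aldh1l1 (3.344 CPM) and PV replicate 6 in Cx3cr1 (16.04 CPM).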

How the results depend on the processing

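Of 1648 fold changes under alternatives, 1469 kept their direction and side of the threshold, 158 kept their direction only and 21 reversed. This total covers only members called in the main fit and leaves out those not tested under an alternative. With the filter at 5 CPM, 14 of the 21 members called in EXC were counted. New calls of other members are not counted. Of 190 class sums, 4 moved by more than 1 SD, all without mitochondrial genes: in SST 127 CPM for oligodendrocyte, 390.7 for astrocyte and 11.98 for mural members, and in VIP 1579 for astrocyte members. That setting takes mitochondrial reads out of the library sizes and scaling factors, so its CPM are on another scale. All 4 sums rose, from 106.5, 327.7 and 10.05 CPM in SST and 1327 CPM in VIP. The causes of the changes in fold changes were not tested.

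With library totals, members were 4 higher and 3 lower in PV, and 14 higher in EXC than PV within POOL6188. Over all genes tested, 1108 were then higher and 6375 lower in PV, and 4515 higher and 1303 lower in EXC within POOL6188. With no filter they were 3 lower in PV, 13 lower in SST, 5 higher and 2 lower in VIP, and 18 higher and 2 lower in EXC within POOL6188. DESeq2 gave 10 lower in SST and 1 lower in VIP, and the fit without sex 1 lower in VIP.

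With pool as a covariate, which rests on EXC replicate 3, members were 1 higher and 1 lower in EXC, 0 higher and 7 lower in PV, 3 higher and 1 lower in SST and 7 higher in VIP. Reversed there were, in EXC, Mobp (-2.12), Mbp (-0.79), Mog (-3.28), Cnp (-1.38), Mal (-2.66), Aqp4 (-0.84), Gfap (-0.42), Slc1a3 (-1.47) and Rgs5 (-0.09). In PV they were Gfap (-1.20), Slc1a3 (-3.04), Gja1 (-0.66), C1qa (0.65), Cx3cr1 (-0.77) and Vtn (-1.65), and in SST Mobp (2.96), Aqp4 (0.49) and Gfap (0.68).

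Without EXC replicates 2 and 6, 6 members were higher in EXC, 3 lower in PV, 2 lower in VIP, and 4 higher and 2 lower in EXC within POOL6188. Without EXC replicates 2, 3 and 6, chosen after seeing the data, 8 were higher and 1 lower in EXC, 4 lower in PV, 10 lower in SST, 5 higher and 2 lower in VIP, and 4 higher and 2 lower in EXC within POOL6188. Aqp4 in EXC reversed to -0.36 and -0.32 in these fits and to -0.06 without replicate 6 alone, and it ran from -0.06 to 1.51 when 1 library was left out.

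Leaving out 1 library at a time gave 14 to 25 members higher and 0 to 0 lower in EXC, 5 to 10 and 0 to 3 in PV, 0 to 0 and 4 to 8 in SST, and 3 to 4 and 0 to 2 in VIP, with 0 to 0 between the sexes. It gave 6 to 12 higher and 0 to 2 lower in EXC within POOL6188, and 1 to 4 higher and 3 to 7 lower in SST within POOL7098. Lower in PV were 2 without EXC replicate 3, 3 without EXC replicate 6 and 0 without PV replicate 2, 4 or 5 or VIP replicate 3. In EXC, PV, SST and VIP in turn, the oligodendrocyte sum ran from 648.9 to 1165, 244.3 to 303.6, 101.9 to 111.7 and 147 to 259 CPM. The astrocyte sum ran from 1499 to 2242, 570.8 to 674.5, 312.2 to 343 and 1270 to 1355 CPM, and the microglia sum from 46.32 to 73.04, 28.35 to 40.84, 19.03 to 21.77 and 30.83 to 36.76 CPM. The endothelial sum ran from 12.15 to 33.31, 6.72 to 9.572, 3.517 to 4.739 and 3.579 to 5.418 CPM, and the mural sum from 18.9 to 38.56, 21.43 to 26.79, 9.514 to 10.41 and 15.19 to 18.32 CPM.

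The counts of the further lists without EXC replicate 6 and with pool as a covariate were added after seeing the data. No paired analysis was possible because the labels give no replicate numbers. Depth limits PV most, where 3 reads are up to 3.21 CPM.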
